A study of Mustela putorius furo and Mus musculus with 4 samples.

Results

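Glycogen synthesis and breakdown were examined through 9 genes in cultured ferret and mouse astrocytes. The genes encode the phosphorylases Pygm, Pygb and Pygl, the phosphorylase kinase subunits Phka1 and Phkb, the synthesis enzymes Ugp2, Gys1 and Gbe1, and the phosphatase scaffold Ppp1r3c. They were found by gene symbol, without regard to case, and all 9 had 1 value per library among 13373 symbols shared by both species. Pygm was selected on its measured level, high in ferret and under 1 in mouse astrocytes, and the other members were chosen with the levels of both species known. The differences of the 9 genes between species are therefore given as a description with no test.

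Astrocytes were prepared from the cerebral cortex of sable ferrets (Mustela putorius furo) at postnatal day 1 and of wild-type ICR mice at postnatal day 1 to 3, with 2 libraries per species. Per the study's methods, the cells of 1 ferret pup filled 4 flasks, whereas the cells of 4 mouse pups were pooled in 1 flask. Mixed glia of both species were cultured for 14 days and shaken for 12 h, and the attached cells were replated with 10% serum, changed to serum-free medium on day 3 and harvested on day 7. No source states that the 2 libraries of a species came from separate cultures, so the spread between them may be technical.

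Glycogen is the branched glucose polymer that cells keep as a short-term store, and in the brain it is held mainly by astrocytes. Ugp2 makes UDP-glucose, glycogen synthase (Gys1) adds it to the chain, and the branching enzyme (Gbe1) introduces branch points. Glycogen phosphorylase removes glucose units as glucose 1-phosphate after phosphorylase kinase has phosphorylated it, and protein phosphatase 1, brought to glycogen by scaffolds such as Ppp1r3c, reverses that step and activates the synthase. The 3 phosphorylases are named for muscle (Pygm), brain (Pygb) and liver (Pygl), and astrocytes are known to hold the brain and the muscle form.

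Values are FPKM, fragments scaled to exon length and to the fragments mapped in the library, a level per length that allows genes to be compared within a library. The gene models of each species came from its own annotation, so models of unequal completeness enter every difference between species, and species, annotation and culture cannot be told apart. The deposited FPKM values do not give the sequencing depth, and the read counts that the study lists in a supplement were not used here. The lowest FPKM steps give only the ratio of depths within a species, 1.17 for ferret replicate 1 over replicate 2 and 0.834 for mouse replicate 1 over replicate 2. The sum over shared genes was 227391 and 236543 FPKM in ferret and 300465 and 308122 FPKM in mouse libraries. Genes were tested where either species had a mean of 1 FPKM or more, which 10204 did. Across these the median difference in log2(FPKM + 1), ferret minus mouse, was accordingly -0.35, and it was -0.01 after each library was rescaled to the mean of the 4 sums.

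The cultures held RNA of astrocyte markers in both species, with a summed level of 7 markers between 3484 and 3592 FPKM in ferret and between 2895 and 3136 FPKM in mouse libraries. Most of each sum was Gfap and Aldoc, neither of which was called. Of the 7, 3 were called lower in ferret astrocytes, Aqp4 (log2 difference -3.09), Aldh1l1 (-2.95) and Slc1a3 (-1.16), and 1 higher, S100b (2.01). By the rule given below, 30.1% of all tested genes were called lower and 13.1% higher with FPKM as deposited. These shares stand beside each count of called markers here. Markers of other cells also differed between the species. The 9 microglial markers with values had sums of 3.64 and 3.31 FPKM in ferret libraries, where Cx3cr1 was listed at 0, against 639 and 616 FPKM in mouse libraries, and 9 of 9 were called lower. The 7 meningeal fibroblast markers summed to 122 and 108 FPKM in ferret and to 1551 and 1528 FPKM in mouse libraries. The 9 oligodendrocyte lineage markers with values in both species summed to 169 and 188 FPKM in ferret and to 69.0 and 69.0 FPKM in mouse libraries. Of the 8 tested, 3 were called higher. Olig1, on the same list, had a value in mouse libraries only, 107.4 and 116.9 FPKM, and is left out of these sums. The order of the sums thus rests on which symbols were matched. The 4 neuronal markers with values in both species summed to between 24.7 and 33.1 FPKM in the 4 libraries, most of it Map2 (18.8 and 19.0 FPKM in ferret, 30.4 and 31.3 FPKM in mouse libraries), and Syt1 was called higher in ferret astrocytes. Stmn2, on the same list, had a value in mouse libraries only, 123.6 and 127.4 FPKM, above these sums, so neuronal RNA of the species is not compared by them. The 5 endothelial markers summed to 0.288 and 0.211 FPKM in ferret libraries, where Pecam1, Cdh5 and Tek were listed at 0, and to 24.3 and 24.9 FPKM in mouse libraries, where Cldn5 was listed at 0 and Cdh5 alone had 22.0 and 22.5 FPKM. These marker levels differ with species like the genes below, and their part in those differences was not tested. In bulk samples, fewer cells of a type and less RNA per cell cannot be told apart. The study also counted cells by immunostaining, in cultures kept in serum, whereas the RNA was taken after serum-free culture. It reported mostly astrocytes in both species, with few microglia in both and few neurons in the ferret cultures.

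The 3 phosphorylases share the serine that phosphorylase kinase modifies, at residue 15 counted from the start codon. The coding bases of residues 11 to 20 of the mouse genes are shown to let the isoforms be compared at this site, with the serine codon in capitals (GENCODE M21 transcripts, GRCm38, written 5′ to 3′ on the coding strand). They lie at chr19:6384509-6384538 on the plus strand for Pygm, at chr2:150786898-150786927 on the plus strand for Pygb and at chr12:70227524-70227553 on the minus strand for Pygl, all in coding exons.
Pygm: agaaagcaaatcAGCgttcgtggcttagcc
Pygb: cagaagcagatcAGCgtgcgtggcatcgcg
Pygl: cgacggcagatcAGCatccgaggcatcgtg
The serine codon was the same in the 3 genes, and the 30 bases differed at 8 positions between Pygm and Pygb, at 11 between Pygm and Pygl and at 8 between Pygb and Pygl. Over the whole coding sequences, of 2529 bases in Pygm, 2532 in Pygb and 2553 in Pygl, aligned bases were 77.3% identical between Pygm and Pygb, 74.4% between Pygm and Pygl and 74.6% between Pygb and Pygl. The longest identical run between the main mouse transcripts was 62 bases, between Pygm and Pygb, which is shorter than the sequenced reads. Ferret sequences were not analysed here.

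Pygm, which encodes muscle phosphorylase and is the gene of McArdle disease, stood at 67.9 and 71.4 FPKM in ferret and at 0.440 and 0.480 FPKM in mouse libraries. Both ferret libraries lay far above both mouse libraries, and the spread between libraries of a species was small beside the gap. The ferret mean of 69.6 ± 2.46 (SD, n = 2) was 151-fold above the mouse mean of 0.460 ± 0.028 (SD, n = 2). The difference in log2(FPKM + 1) was 5.60 (standard error 0.069). In ferret astrocytes 95.5% of the shared genes had a lower mean level than Pygm, and in mouse astrocytes 23.8% did.

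Pygb, which encodes brain phosphorylase, was distributed in the opposite way. Its levels were 25.6 and 27.5 FPKM in ferret and 147.7 and 157.3 FPKM in mouse libraries, again without overlap. The ferret mean of 26.6 ± 1.31 (SD, n = 2) was 5.74-fold below the mouse mean of 152.5 ± 6.80 (SD, n = 2), a log2(FPKM + 1) difference of -2.48 (standard error 0.063). Pygb was the highest of the 9 genes in mouse astrocytes, where 98.0% of the shared genes had a lower mean, and the third in ferret astrocytes, where 85.9% did.

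Pygl, which encodes liver phosphorylase and is the gene of Hers disease, followed Pygm in direction. It had 23.9 and 23.8 FPKM in ferret and 3.28 and 3.40 FPKM in mouse libraries. The mean levels of 23.9 ± 0.106 (SD, n = 2) and 3.34 ± 0.086 (SD, n = 2) differed 7.15-fold, with a log2(FPKM + 1) difference of 2.52 (standard error 0.067).

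**Figure D1:**
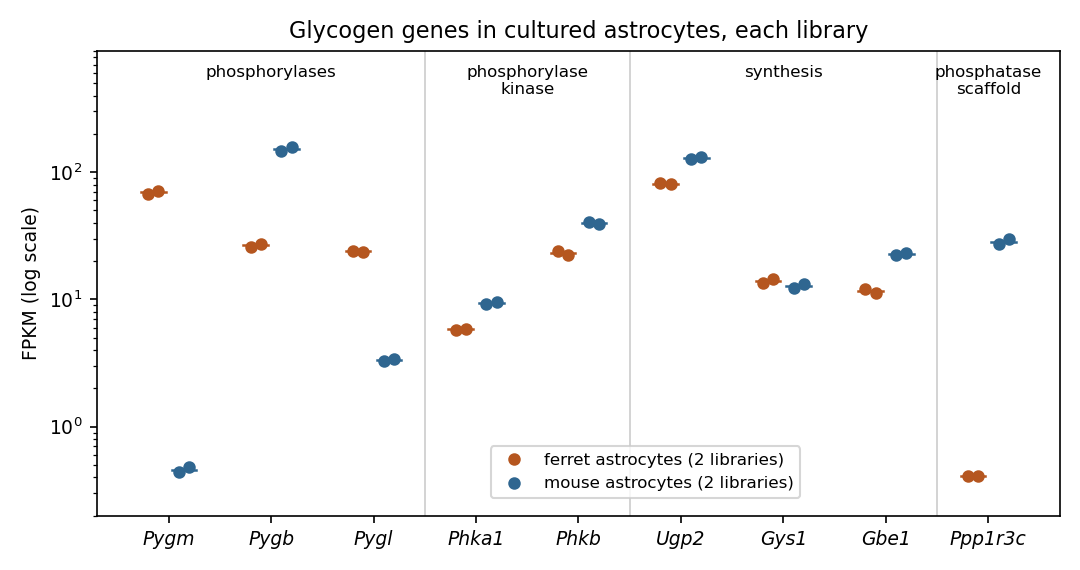
FPKM (log axis) of the 9 glycogen genes, grouped by role, in 2 ferret and 2 mouse libraries; points are libraries and short lines are means. The lowest of the 9 genes is Pygm in mouse libraries, at 0.440 and 0.480, and Ppp1r3c in ferret libraries, at 0.407 and 0.413. Gys1 stands between 12.3 and 14.5 in the 4 libraries.

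The isoforms were then set side by side within each library, where the scaling between species does not enter. Pygm made up 57.8% and 58.2% of the summed phosphorylase FPKM in the ferret libraries, Pygb 21.8% and 22.4%, and Pygl 20.4% and 19.4%. In the mouse libraries Pygb made up 97.5% and 97.6%, Pygl 2.17% and 2.11%, and Pygm 0.290% and 0.298%. The largest share thus belonged to Pygm in both ferret libraries and to Pygb in both mouse libraries. Within a library Pygm exceeded Pygb 2.65-fold and 2.60-fold in ferret, and Pygb exceeded Pygm 336-fold and 328-fold in mouse.

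The summed phosphorylase level differed much less than its parts. It was 117.5 and 122.6 FPKM in ferret and 151.4 and 161.2 FPKM in mouse libraries, so the mouse libraries were higher with FPKM as deposited. With every library rescaled to the mean of the 4 sums, it was 138.5 and 139.0 in ferret and 135.1 and 140.3 in mouse libraries. The species then overlapped, and the direction of this difference rests on the scaling. The isoform split did not depend on it, since rescaling multiplies all genes of a library alike. Like any ratio of genes, the split still rests on the gene models of each species.

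**Figure D2:**
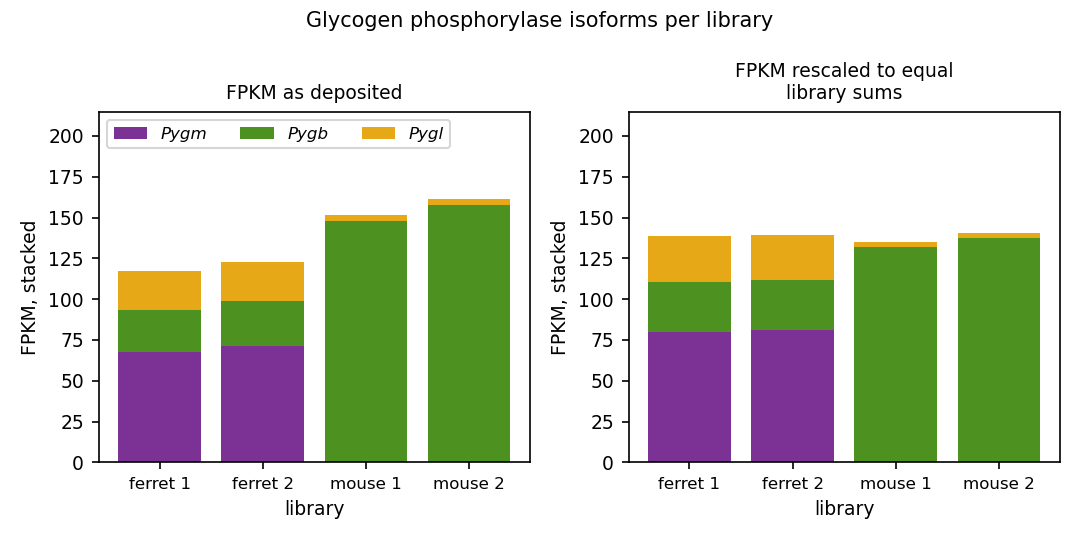
Stacked FPKM of Pygm, Pygb and Pygl in each library, as deposited (left) and with each library rescaled to the mean of the 4 sums over shared genes (right). The total was 117.5 to 161.2 as deposited and 135.1 to 140.3 after rescaling, while Pygm filled 57.8% and 58.2% of the ferret bars and under 1% of the mouse bars.

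Phosphorylase kinase, which activates phosphorylase on calcium and cyclic AMP signals, is built of alpha, beta and gamma subunits and calmodulin. Phkb, its only beta subunit gene, had 24.2 and 22.2 FPKM in ferret and 40.6 and 39.5 FPKM in mouse libraries. The log2(FPKM + 1) difference of -0.77 (standard error 0.064) was -0.42 relative to the median of all tested genes. Phka1, the muscle-type alpha subunit, had 5.80 and 5.86 FPKM in ferret and 9.19 and 9.58 FPKM in mouse libraries, a difference of -0.60 (standard error 0.070), or -0.26 relative to that median. Neither gene passed a log2 difference of 1. Phka1 thus did not follow Pygm, the muscle-type phosphorylase, in direction. Of the summed alpha subunit level Phka1 made up 35.5% and 36.1% in ferret and 46.9% and 50.9% in mouse libraries, and the rest was Phka2, the liver-type subunit.

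The synthesis enzymes differed less than the phosphorylases. Gys1, the glycogen synthase of muscle and brain, had 13.4 and 14.5 FPKM in ferret and 12.3 and 13.2 FPKM in mouse libraries. The lower ferret library lay just above the higher mouse library, and the log2(FPKM + 1) difference was 0.12 (standard error 0.072) as deposited and 0.48 (standard error 0.058) after rescaling. Gys2, the liver synthase, was at 0.013 and 0.015 FPKM in ferret and listed at 0 in both mouse libraries. Gbe1, the branching enzyme and the gene of Andersen disease, had 12.0 and 11.3 FPKM in ferret and 22.5 and 23.1 FPKM in mouse libraries, a difference of -0.91 (standard error 0.065) as deposited and -0.54 after rescaling. Ugp2, which supplies UDP-glucose also for other sugar pathways, was the highest of the 9 genes in ferret astrocytes with 81.8 and 80.9 FPKM and had 127.5 and 132.3 FPKM in mouse libraries. Its difference was -0.67 (standard error 0.056) as deposited and -0.28 after rescaling.

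Ratios within a library place these enzymes beside Gys1. The Gbe1 level was 0.900 and 0.775 times that of Gys1 in ferret and 1.82 and 1.75 times in mouse libraries. Ugp2 stood at 6.12 and 5.57 times Gys1 in ferret and at 10.3 and 10.0 times in mouse libraries. The summed phosphorylase level was 8.79 and 8.45 times Gys1 in ferret and 12.3 and 12.2 times in mouse libraries. All 3 ratios were lower in both ferret than in both mouse libraries. They still rest on the gene models of each species.

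Ppp1r3c, the scaffold also called protein targeting to glycogen, had the most negative difference of the 9 genes. It stood at 0.407 and 0.413 FPKM in ferret and at 27.0 and 29.9 FPKM in mouse libraries, a 69.5-fold difference of the means and a log2(FPKM + 1) difference of -4.38 (standard error 0.078). Ferret Ppp1r3c was the lowest of the 9 genes, and 25.9% of the shared genes had a lower mean, against 82.4% in mouse astrocytes. Relative to Gys1, its level was 0.030 and 0.028 in ferret and 2.19 and 2.27 in mouse libraries. Ferret Ppp1r3g was not analysed here. The 6 family members with values in both species, Ppp1r3a to Ppp1r3f, summed to 3.40 and 3.26 FPKM in ferret and to 34.9 and 37.9 FPKM in mouse libraries. Ppp1r3c made up 77.4% and 79.0% of that sum in mouse libraries and 12.0% and 12.7% in ferret libraries. Ppp1r3d was the largest part in ferret libraries, with 35.1% and 51.4%, at a level of 1.19 and 1.68 FPKM.

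The rule used to call genes across the whole table was an adjusted p under 0.05 and an absolute log2(FPKM + 1) difference above 1. Pygm and Pygl met it as higher and Pygb and Ppp1r3c as lower in ferret astrocytes, 2 and 2 of the 9 genes, which describes them and is no test of genes chosen on these values. Among all tested genes, 13.1% were called higher and 30.1% lower with FPKM as deposited. After rescaling, the same 4 genes met it, against 19.1% higher and 21.7% lower among all genes. As the members were chosen with these values known, nothing is read from the counts. The median difference of the 9 genes was -0.67, beside -0.35 for all tested genes.

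**Figure D3:**
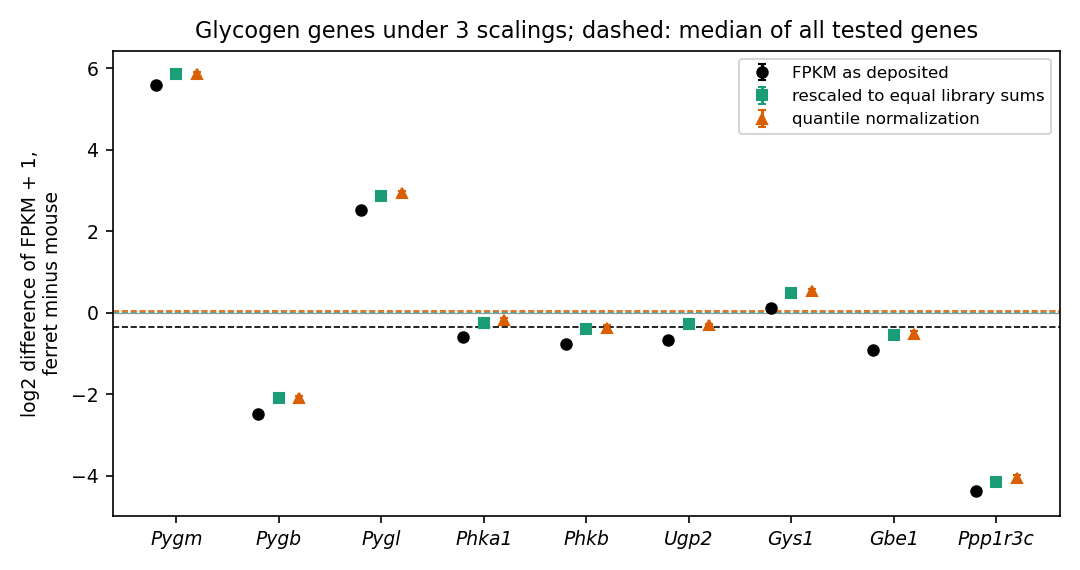
Difference in log2(FPKM + 1), ferret minus mouse, of the 9 glycogen genes under 3 scalings, with standard errors (4 libraries); dashed lines are the median of all tested genes under each scaling. Pygm, Pygl, Pygb and Ppp1r3c keep to their side by over 2 log2 units, whereas the other 5 genes lie between -0.91 and 0.12 as deposited and shift upward with rescaling.

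Within a species the order of levels was well separated. In ferret astrocytes it ran Ugp2, Pygm, Pygb, Pygl, Phkb, Gys1, Gbe1, Phka1 and Ppp1r3c, and only the libraries of Pygl and Phkb overlapped among neighbours. In mouse astrocytes it ran Pygb, Ugp2, Phkb, Ppp1r3c, Gbe1, Gys1, Phka1, Pygl and Pygm, with no overlap between the libraries of neighbours. By the distance in log2(FPKM + 1) over the 4 libraries, the genes near to Pygm included Pmp2 (distance 0.67) and Taf7 (0.76). Pmp2 had 82.0 and 74.4 FPKM in ferret and 0.117 and 0.058 FPKM in mouse libraries. With 2 species such a likeness states only that these genes are high in the one and low in the other.

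Since Pygm is named for skeletal muscle, markers of that tissue were read beside it. The 7 muscle markers with values, among them Ckm, Mb and Des, had sums of 0.136 and 0.098 FPKM in ferret libraries, and Myh1, Mb, Tnnt3 and Myog were listed at 0 there. In mouse libraries the sums were 1.44 and 1.48 FPKM, and Myog was listed at 0. Ferret Pygm at 67.9 and 71.4 FPKM was thus measured with muscle markers near 0. The 9 oligodendrocyte lineage markers with values in both species, in contrast, had the higher sums in ferret libraries, with Olig1 left out. There Sox10 had 26.3 and 31.0 FPKM and Mbp 28.5 and 33.1 FPKM. Both were among the 3 of 8 called higher, beside 13.1% of all tested genes. Olig2 and Cspg4 went the other way, with log2 differences of -0.82 and -0.47. The part of these markers in the Pygm level was not tested.

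The remaining glycogen genes were listed by role, 25 in all, of which 21 had values in both species and 19 were tested. The list was drawn up with earlier results of these data known, so its counts and p-values are read as a description. By limma with Benjamini-Hochberg adjustment over all tested genes, 9 were called lower and 0 higher in ferret astrocytes, and 3 were higher and 14 lower at an adjusted p under 0.05 without the limit on size. Among all tested genes 32.4% were higher and 56.2% lower by that rule. The counts at an unadjusted p under 0.05 were the same, 3 and 14. The median of the 19 genes was -0.82, beside -0.35 for all tested genes, of which 30.1% were called lower. After rescaling, 6 of the 9 were still called lower, and Ppp1ca, Ppp1cb and Ppp1r3b no longer passed the log2 difference of 1, beside 21.7% of all genes called lower.

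Among genes of breakdown, Gaa, the lysosomal glucosidase of Pompe disease, had 11.8 and 12.9 FPKM in ferret and 49.0 and 48.4 FPKM in mouse libraries (log2 difference -1.89, adjusted p = 2.13e-09 by limma). Phkg1, the muscle-type catalytic subunit of phosphorylase kinase, was lower in ferret astrocytes, with 2.67 and 2.08 FPKM against 8.42 and 9.63 FPKM (log2 difference -1.57, adjusted p = 1.98e-07 by limma). Phkg2, the other catalytic subunit, made up most of the gamma level in both species, 88.5% and 91.2% in ferret and 79.3% and 75.8% in mouse libraries. Phka2 stood at 10.5 and 10.4 FPKM in ferret and at 10.4 and 9.23 FPKM in mouse libraries, which overlapped (log2 difference 0.08, adjusted p = 0.313 by limma).

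The glucose phosphate mutase Pgm1, which links glycogen with glycolysis, had 24.5 and 25.3 FPKM in ferret and 39.6 and 39.7 FPKM in mouse libraries (log2 difference -0.65, adjusted p = 2.52e-06 by limma). Pgm2 was called lower in ferret astrocytes with a difference of -1.38. Pgm1 and Pgm2 were matched by symbol alone, and whether each symbol names the same gene in both species was not checked. Mouse Gyg, the glycogenin that primes the chain, had 64.1 and 68.2 FPKM, and ferret glycogenin under this symbol was not analysed here. All 3 catalytic subunits of protein phosphatase 1 were lower in ferret astrocytes, by differences of -1.35 for Ppp1ca, -1.15 for Ppp1cb and -1.50 for Ppp1cc. Only Ppp1cc of these kept a difference beyond 1 after rescaling, at -1.12.

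Among the scaffolds, Ppp1r3b had 0.760 and 0.396 FPKM in ferret and 2.40 and 2.77 FPKM in mouse libraries (log2 difference -1.19). Ppp1r3f had 0.083 and 0.069 FPKM in ferret and 2.77 and 2.13 FPKM in mouse libraries (log2 difference -1.67). Both were called lower, as Ppp1r3c was, whereas Ppp1r3d overlapped between the species. Stbd1, which tethers glycogen to membranes for its delivery to lysosomes, had 0.125 and 0.173 FPKM in ferret and 4.35 and 4.77 FPKM in mouse libraries (log2 difference -2.27, adjusted p = 2.67e-09 by limma).

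The 3 genes that were higher at the adjusted p alone were Gsk3b, Epm2a and Nhlrc1. Gsk3b, a kinase that inactivates glycogen synthase, had 27.3 and 29.4 FPKM in ferret and 20.2 and 21.5 FPKM in mouse libraries (log2 difference 0.42, adjusted p = 1.73e-04 by limma). Epm2a and Nhlrc1, the laforin and malin genes of Lafora disease, had differences of 0.53 (adjusted p = 3.80e-04 by limma) and 0.27 (adjusted p = 0.0161 by limma). None of the 3 passed the limit on size under the scalings tried.

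The signals that start glycogen breakdown in astrocytes, noradrenaline and the peptides VIP and PACAP, act through receptors that raise calcium or cyclic AMP, and cyclic AMP frees protein kinase A, which phosphorylates phosphorylase kinase. The list of 15 such genes was also drawn up with earlier results of these data known, and its values are likewise a description. Of these genes, 13 had values in both species and 11 were tested. By limma 1 was called higher and 5 lower in ferret astrocytes, beside 13.1% and 30.1% of all tested genes. After rescaling 1 was called higher and 4 lower, beside 19.1% and 21.7%. The median of the 11 genes was -0.91, beside -0.35 for all tested genes.

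The alpha-1 noradrenaline receptors Adra1b and Adra1d were called lower in ferret astrocytes. Adra1b had 0.424 and 0.432 FPKM in ferret and 7.94 and 7.85 FPKM in mouse libraries (log2 difference -2.64, adjusted p = 6.08e-10 by limma). Adra1d had 0.021 and 0.050 FPKM in ferret and 4.28 and 4.42 FPKM in mouse libraries (log2 difference -2.37, adjusted p = 1.41e-09 by limma). The microglial and fibroblast markers, and Cdh5 and Tek of the endothelial markers, were lower in the same ferret libraries, and their part in these differences was not tested. Adra1a, named after its values were seen, was under the level for testing and overlapped between the species, with 1.08 and 0.689 FPKM in ferret and 0.639 and 0.728 FPKM in mouse libraries.

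The VIP receptor Vipr2 was listed at 0 in both ferret libraries and had 1.07 and 1.10 FPKM in mouse libraries, a call that was lost after rescaling. The PACAP receptor Adcyap1r1 had 2.18 and 1.73 FPKM in ferret and 4.40 and 4.69 FPKM in mouse libraries (log2 difference -0.91, adjusted p = 6.13e-06 by limma).

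The regulatory subunit genes of protein kinase A differed between the species in their shares of the summed FPKM. Prkar2b had 14.6 and 13.8 FPKM in ferret and 1.63 and 1.97 FPKM in mouse libraries (log2 difference 2.44, adjusted p = 2.12e-09 by limma). Prkar1b had 5.51 and 4.84 FPKM in ferret and 21.2 and 22.4 FPKM in mouse libraries (log2 difference -1.88, adjusted p = 7.02e-09 by limma). As shares of the 4 regulatory subunits, Prkar2b made up 10.3% and 9.88% in ferret and 1.07% and 1.25% in mouse libraries, and Prkar1b 3.90% and 3.45% in ferret and 13.9% and 14.2% in mouse libraries. Prkar1a was the most abundant subunit in both species, at 61.5% and 58.9% in ferret and 69.4% and 69.2% in mouse libraries. Its level of 86.8 and 82.5 FPKM in ferret and 105.6 and 109.3 FPKM in mouse libraries differed by -0.34 as deposited (adjusted p = 3.39e-04 by limma) and by 0.05 after rescaling (adjusted p = 0.409 by limma).

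**Figure D4:**
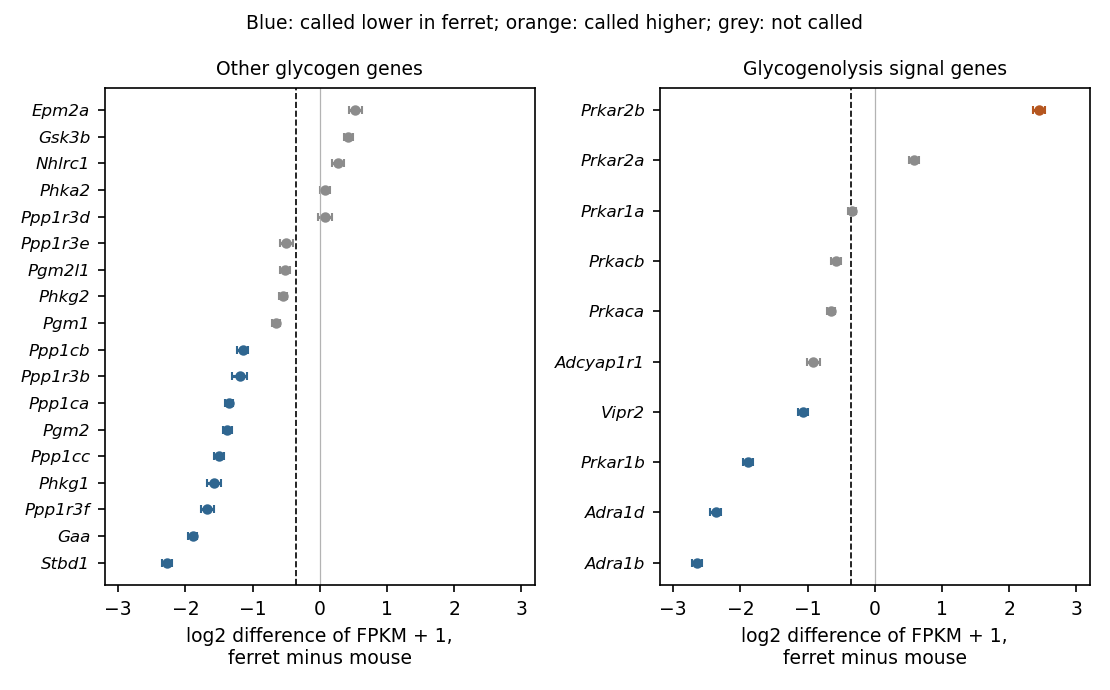
Difference in log2(FPKM + 1), ferret minus mouse, with standard errors (4 libraries), of tested genes among the other glycogen genes (left) and the glycogenolysis signal genes (right); the dashed line is the median of all tested genes, -0.35. Blue points are genes called lower in ferret astrocytes, from Stbd1 at -2.27 to Ppp1cb at -1.15 on the left and from Adra1b at -2.64 to Vipr2 at -1.06 on the right, the orange point is Prkar2b, called higher, and grey points were not called.

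The mouse loci of the 9 genes show what the values rest on (GENCODE M21, GRCm38, an annotation release other than that of the authors). Pygm lies at chr19:6384399-6398459 on the plus strand with 20 exonic regions, and Ppp1r3c on the same chromosome at chr19:36731731-36736653 on the minus strand with 2. Pygb lies at chr2:150786735-150831758 on the plus strand with 21 exonic regions, and Pygl at chr12:70190811-70231488 on the minus strand with 22. No exonic base of these 4 genes, or of Phka1, Phkb and Gbe1, overlapped an exon of another annotated gene. Of Gys1, at chr7:45434844-45456619 on the plus strand, 310 of 4789 exonic bases lie opposite exons of Ruvbl2, and of Ugp2, at chr11:21321138-21371201 on the minus strand, 78 of 3069 lie opposite Gm12043. The libraries were made with a stranded kit, and whether the counting used strand is not given in the sources used here, so the Gys1 and Ugp2 levels may hold a part of their neighbours.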

How the data were processed

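RNA of ferret and mouse astrocytes (2 libraries each) was sequenced from polyA-selected, stranded libraries. Per the labels and the study's methods, the authors aligned reads with STAR (version 2.7.0f) to each species' Ensembl genome (GRCm38 for the mouse) and deposited FPKM values per gene from Cufflinks (version 2.2.1). Symbols were matched in upper case. The value with the highest species mean was to be used for repeated symbols, and 0 of the genes listed here had several. Differences were fitted with limma (version 3.58.1, R 4.3.3, trend in expression) on log2(FPKM + 1) over the 10204 shared genes that reached a mean of 1 FPKM in either species, with Benjamini-Hochberg adjustment. Genes were called where the adjusted p was under 0.05 and the log2 difference exceeded 1 in size. The fit was tested on simulated data. With 2 libraries per species, exact permutation cannot give a p under 0.05.

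The members and gene lists were chosen with earlier results of these data known. Named genes are the 9 members, the 25 other glycogen genes, the called genes among 15 signal genes with the highest of each kind, listed marker genes and the 3 genes nearest to Pygm, some of which are not reported here. Shares and ratios were computed within a library. Mouse loci and coding bases came from GENCODE M21. Alternatives were a pseudocount of 0.1, no filter, 2 other scalings, the replicate number as a block, summed values of repeated symbols and each library left out. Replicate numbers come from the labels alone, and the deviations of same-numbered libraries did not move together (r = 0.01 across genes).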

Additional observations from a re-analysis of the deposited data

How the results depend on the processing

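The same 2 members met the call rule as higher and the same 2 as lower in ferret astrocytes under all alternatives, a description of genes chosen on these values. Pygm ranged from 5.56 to 6.96 and Ppp1r3c from -5.81 to -4.06, and the far ends came from a pseudocount of 0.1. Quantile normalization moved the Pygm share of phosphorylase from 58.0% to 57.5% in ferret and from 0.294% to 0.269% in mouse astrocytes. It set the Prkar1a difference to 0.014, and rescaling to the mean of the 4 sums set it to 0.048, against -0.34 as deposited. The Ppp1r3d difference ranged from -0.069 to 0.220 when a library was left out, and was below 0 without ferret replicate 2. The cause of these changes was not tested. Other glycogen genes called lower numbered 6 in place of 9 after either rescaling or quantile normalization, which lost Ppp1cb and Ppp1r3b in both cases, Ppp1ca in the first and Pgm2 in the second. Signal genes called lower numbered 4 to 6, with Vipr2 lost in those 2 scalings and Adcyap1r1 gained with a pseudocount of 0.1 or without ferret replicate 1. With the replicate block, 9 other glycogen genes and 5 signal genes were called lower, as without it. Among all tested genes, 30.3% of calls were higher in ferret astrocytes as deposited, 46.9% after rescaling and 50.0% after quantile normalization. No counting interval was computed for low levels such as mouse Pygm or ferret Ppp1r3c, as the read counts were not used here.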
